A study of Mus musculus with 10 samples.

Results

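The chaperonins and the Hsp90 machinery fold newly made and damaged proteins. Hspd1 (Hsp60) forms the chaperonin of the mitochondrion, Cct4 and Cct8 are subunits of the cytosolic chaperonin CCT (also called TRiC), Hsp90ab1 is the constitutive cytosolic Hsp90, and Ptges3 (p23) is the cochaperone that stabilises Hsp90 in its closed, ATP-bound state. CCT folds actin, tubulin and other cytosolic proteins, and Hsp90 matures kinases and steroid hormone receptors, so tumour cells make heavy use of both. The 5 genes were taken by name, and every row that the authors' deposited comparison tables hold for them was used. These rows were 13 of 2311 and described 12 of 2074 distinct sites, in 5 of 1453 genes.

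The rows concern intronic polyadenylation (IPA), in which a transcript is cleaved and given its poly(A) tail inside an intron, so that it lacks the exons downstream. U1, the small nuclear RNA that pairs with 5' splice sites, is also known to hold back cleavage at such sites along the gene. The measurement was 3'-end sequencing of poly(A)+ RNA in 10 libraries, 2 for each of 5 groups, from cultured mouse mammary tumour lines related to 4T1. The lines 67NR and 168FARN are non-metastatic and 4T07 and 4T1 metastatic, by the series' design. The remaining group, 4T1-U1-ASO, was 4T1 cells given antisense morpholino oligonucleotides in the medium with a delivery reagent at 6 µl/mL. The labels give the 4T1 libraries no treatment, although the design names a mock control, and they give neither the morpholino dose nor the time of exposure. All groups were grown in the same medium. Whether the 2 libraries of each group stem from separate cultures is not labelled. The p-values thus reflect the spread among these libraries alone, possibly a technical one.

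Peak lists held 2499475 to 3347776 reads in 9 libraries. The list of 67NR replicate 2 held 1427728 reads on 10 chromosomes, which include the chromosomes of all 5 genes. Usage is the percentage of site reads among site and last-exon reads of one library, and library scaling cancels in it. Positions are on mm9, 1-based, and the sites are intronic by the authors' word, since no mm9 annotation was used here. Unlisted peaks likewise have no gene here beyond their position next to a listed site, and levels of epithelial, mesenchymal and immune markers are not given. In bulk RNA, fewer cells with a transcript and less of it per cell cannot be told apart. Hspd1, Hsp90ab1 and Ptges3 have processed pseudogenes, and the treatment of reads with several matches is not stated in what was used here.

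Hspd1, Hsp90ab1, Cct4 and Cct8 had 10 sites in the comparison of U1-ASO with 4T1, and Ptges3 had none. Usage was higher with U1-ASO at 7 of these sites and lower at 3. In 3 of the 4 genes the lower one was the listed site nearest to the last exon. All 10 passed the edgeR quasi-likelihood test of site reads relative to last-exon reads (Benjamini-Hochberg adjusted p under 0.05). So did every site of that table, 87.6% of 1561 as higher and 12.4% as lower, because the authors listed a site only if its adjusted p was 0.1 or less. Passing therefore says nothing particular about these genes, and the levels of the sites and of the last exons are given separately.

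Hspd1 had a single site, on the minus strand of chromosome 1 at 55141421 to 55141784, 5970 bp upstream of the last-exon peak (55134674 to 55135451). The site had 78 and 107 reads in the 2 U1-ASO libraries and 56 and 77 in 4T1. The last exon had 259 and 295 reads with U1-ASO and 644 and 1166 in 4T1. Usage was thus 23.1% and 26.6% with U1-ASO and 8.0% and 6.19% in 4T1, so the groups did not overlap. The mean was 24.9% ± 2.45 (SD, n = 2) against 7.10% ± 1.28 (SD, n = 2), and this was the highest usage of any of the 10 sites with U1-ASO. In the authors' deposited table the log2 fold change was 1.99 with a standard error of 0.42, and its adjusted p is listed as 0. The edgeR quasi-likelihood test gave 2.15 on the log2 scale (SE 0.28, adjusted p = 4.15e-08). On the authors' size factors the site itself differed by -0.10 (SE 0.28, adjusted p = 0.742 by the edgeR quasi-likelihood test), while the last exon fell by 2.26 (SE 0.22, adjusted p = 0.000298).

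Hsp90ab1 showed the deepest fall at the last exon. Its last-exon peak (chromosome 17, minus strand, 45704631 to 45705510) had 2094 and 2150 reads with U1-ASO and 9837 and 10519 in 4T1. The groups lie far apart, and the change fell by 2.86 on the log2 scale (SE 0.25, adjusted p = 0.000298, edgeR quasi-likelihood test). The upstream site (45708447 to 45708845) had 122 and 94 reads against 230 and 186. Its own reads fell by 1.56 (SE 0.24, adjusted p = 3.10e-07, edgeR quasi-likelihood test), which was less than the last exon, and usage was therefore higher at 5.51% and 4.19% against 2.28% and 1.74%. The downstream site (45707959 to 45708128) had 15 and 14 reads with U1-ASO against 169 and 175 in 4T1. These reads fell by 4.15 (SE 0.32, adjusted p = 5.41e-17, edgeR quasi-likelihood test), more than the last exon, and usage was lower at 0.711% and 0.647% against 1.69% and 1.64%. The authors' deposited table gives log2 fold changes of 1.18 (SE 0.44, adjusted p = 0.059) for the upstream site and -1.20 (SE 0.43, adjusted p = 0.050) for the downstream one. These neighbouring sites thus moved in opposite directions relative to the same last exon.

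Between the last exon and these Hsp90ab1 sites the peak lists hold further peaks on the same strand that the tables do not list. The one at 45705804 to 45706777 had 9872 and 7986 reads in 4T1 and 2553 and 2537 with U1-ASO. The one at 45707204 to 45707752 had 15122 and 11886 reads in 4T1 and 4898 and 4625 with U1-ASO. Both had at least 2537 reads in each of these libraries, and both were lower in both U1-ASO libraries than in both of 4T1. They fell less than the last exon, so their shares of their own and last-exon reads were higher with U1-ASO. The share of the former was 55.2% and 54.1% against 50.1% and 43.2% in 4T1, and that of the latter 70.3% and 68.3% against 60.6% and 53.1%. These peaks lie nearer to the last exon than the listed site with lower usage. What they are could not be told without an annotation, and the usage values above do not count them.

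Cct4 had 3 sites on the plus strand of chromosome 11, upstream of a last-exon peak at 22903133 to 22903883. The most upstream (22893270 to 22893343) had only 5 and 7 reads with U1-ASO and 1 and 2 in 4T1. Per last-exon read this was a ratio of 5.33, with an exact 95% interval of 1.44 to 29.4 that covers counting error only. The middle site (22898440 to 22899136) had 10 and 25 reads against 3 and 8, with usage of 1.08% and 2.51% against 0.267% and 0.573%. The site nearest the last exon (22902811 to 22902937, 196 bp away) went the other way, with 16 and 18 reads against 41 and 63. Its usage was 1.72% and 1.82% with U1-ASO and 3.53% and 4.34% in 4T1.

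The authors' deposited table lists log2 fold changes of 1.77 (SE 0.69, adjusted p = 0.072), 1.77 (SE 0.57, adjusted p = 0.029) and -1.10 (SE 0.41, adjusted p = 0.060) for these Cct4 sites in that order. The last exon had 914 and 970 reads against 1122 and 1388 and fell by 1.001 on the log2 scale (SE 0.17, adjusted p = 0.00150, edgeR quasi-likelihood test). Of the sites' own reads, those nearest the last exon fell by 2.175 (SE 0.37, adjusted p = 1.76e-06, edgeR quasi-likelihood test). The middle and upstream sites gave 1.08 (adjusted p = 0.0770) and 1.36 (adjusted p = 0.160) in that test and did not pass. The relative calls of the middle and upstream sites were lost without U1-ASO replicate 2. Their relative log2 changes were then 1.33 (SE 0.84) and 2.14 (SE 1.23), against 2.06 (SE 0.55) and 2.36 (SE 0.87) with all libraries. The upstream estimate thus moved little while its SE grew. The relative call of the nearest site was lost without U1-ASO replicate 1 (-1.14, against -1.18 with all libraries) and by DESeq2 (adjusted p = 0.0616).

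Cct8 had 4 sites on the minus strand of chromosome 16, upstream of a last-exon peak at 87483558 to 87484324. The nearest (87485047 to 87485172, 723 bp away) had 22 and 17 reads with U1-ASO and 60 and 77 in 4T1, with usage of 1.64% and 1.19% against 3.04% and 2.82%. The next (87485836 to 87486149) had 120 and 110 reads against 87 and 82, with usage of 8.34% and 7.25% against 4.34% and 3.001%. The other two were sparse. The site at 87489049 to 87489193 had 19 and 13 reads against 5 and 7, and the one at 87494585 to 87494697 had 21 and 17 against 11 and 7. As in Cct4 and Hsp90ab1, usage of the nearest listed site was lower in both U1-ASO libraries and usage of the listed sites further upstream was higher in both. In Hsp90ab1 this holds for the listed sites only, since the unlisted peaks nearer to the last exon had higher shares, and the upstream site's own reads were lower there.

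In the authors' deposited table the log2 fold changes of the Cct8 sites, from the nearest to the farthest, were -1.01 (SE 0.39, adjusted p = 0.070), 1.1 (SE 0.36, adjusted p = 0.030), 1.88 (SE 0.52, adjusted p = 0.008) and 1.61 (SE 0.49, adjusted p = 0.018). The last exon had 1319 and 1407 reads against 1916 and 2650 and fell by 1.32 (SE 0.17, adjusted p = 0.000633, edgeR quasi-likelihood test). The nearest site's own reads fell by 2.38 (SE 0.35, adjusted p = 6.16e-08, edgeR quasi-likelihood test). The 3 upstream sites gave -0.16, 0.83 and 0.48, with adjusted p of 0.586, 0.156 and 0.369 in that test. The relative call of the nearest site was lost without U1-ASO replicate 2, where its log2 change was -0.84 (SE 0.52) against -1.06 (SE 0.34) with all libraries. By DESeq2 the adjusted p of this relative change was 0.0802. A further peak that no table lists (87486477 to 87486910) had 143 and 175 reads with U1-ASO and 145 and 131 in 4T1. Its share of its own and last-exon reads was 9.78% and 11.1% against 7.04% and 4.71%.

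**Figure D1:**
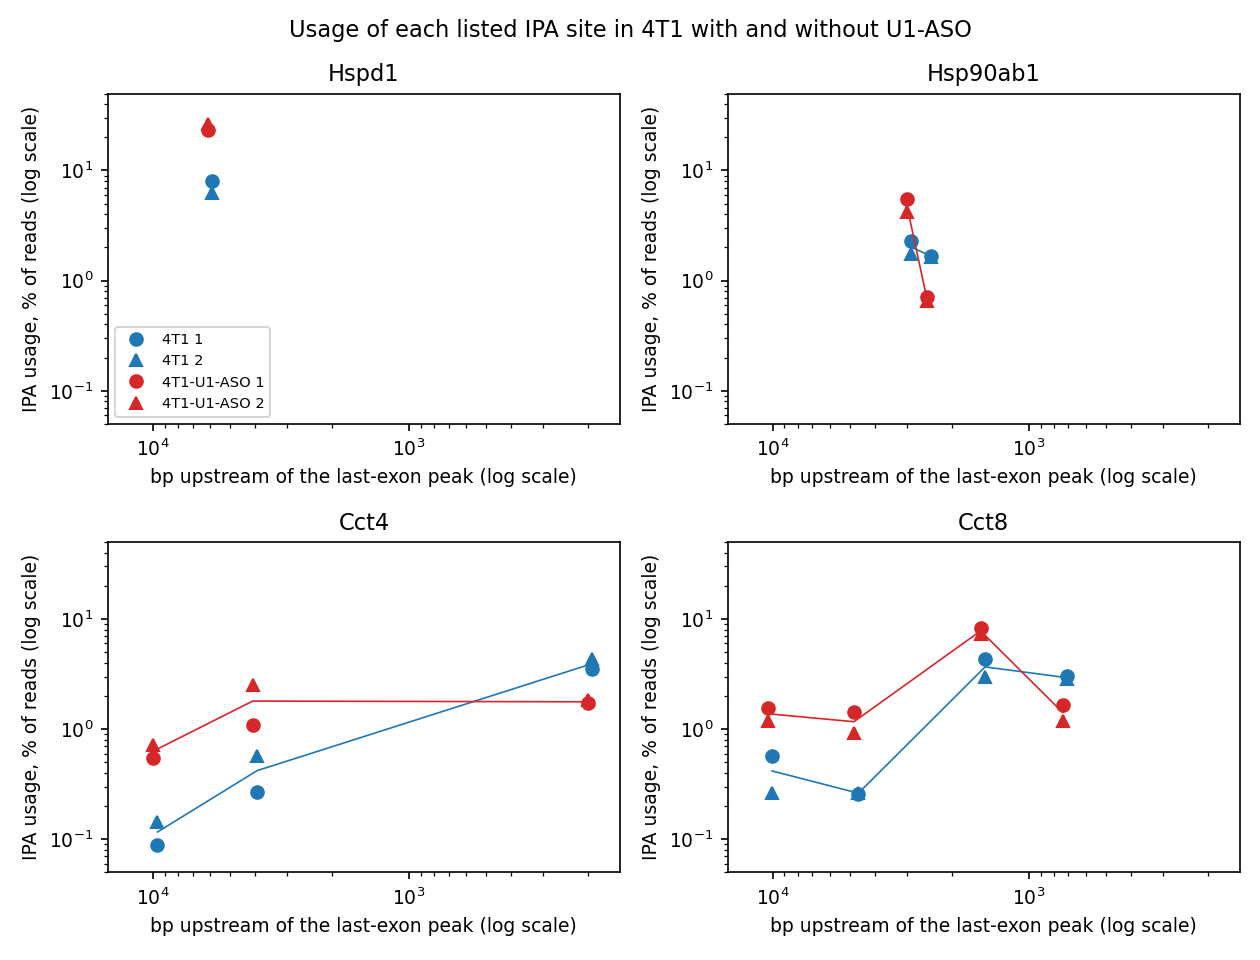
IPA usage (percent of site and last-exon reads, log scale) of the 10 listed sites in each 4T1 and 4T1-U1-ASO library against the distance upstream of the last-exon peak (bp, log scale, the 2 groups drawn slightly apart), with lines joining group means. The red U1-ASO points lie above the blue 4T1 points except at the listed site nearest the last exon in Hsp90ab1, Cct4 and Cct8.

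This order along the gene was not general. With U1-ASO, 25 genes had sites in both directions, and 3 of them were Hsp90ab1, Cct4 and Cct8. The most downstream listed site was the lower one in 10 of the 25, the 3 included, and in these 10 every higher site lay upstream of every lower one. Summed over its listed sites, Cct8 had usage of 12.1% and 10.0% with U1-ASO against 7.84% and 6.13% in 4T1. The summed usage of Cct4 was 3.28% and 4.90% against 3.86% and 5.00%, so its opposite changes left ranges that overlap.

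The sites' own reads, apart from the last exon, were then counted beside those of all listed sites. On the authors' size factors, 0 of the 7 sites with higher usage passed the edgeR quasi-likelihood test as higher in their own reads, and 1 (Hsp90ab1) passed as lower. Of all 1561 sites, 57.1% passed as higher and 12.1% as lower. Among the 1368 sites listed as higher these shares were 65.1% and 1.1%. By an unadjusted p under 0.05 the count for these 7 sites was 0 as well, and it was 0 with DESeq2. All 3 sites with lower usage had fewer reads of their own, as did 90.2% of the 193 sites listed as lower. The last exon was lower in 4 of 4 genes, where 54.9% of 1131 genes were lower and 9.37% higher. Over the listed sites, the median of last-exon reads in 4T1 was 2283 for these genes and 293.5 for all. No share of the 1131 genes at like depth was computed.

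These counts depend on the scaling. The size factors of the authors set the median last exon of the whole table at -0.66 on the log2 scale, and scaling by the read totals of the peak lists set it at -0.07. With totals, 4 of the 7 sites with higher usage passed as higher, against 86.8% of the 1368, and the reads at the Hspd1 site and at 87485836 in Cct8 turned from lower to higher without passing (0.48, adjusted p = 0.0615, and 0.44, adjusted p = 0.0566, edgeR quasi-likelihood test). The last exon remained lower in 4 of 4 genes with totals, where 26.8% of the 1131 genes were lower. Hsp90ab1 fell by 2.26 (SE 0.12, adjusted p = 0.00235) and Hspd1 fell by 1.69 (SE 0.26, adjusted p = 0.00746) with totals, by the same test.

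**Figure D2:**
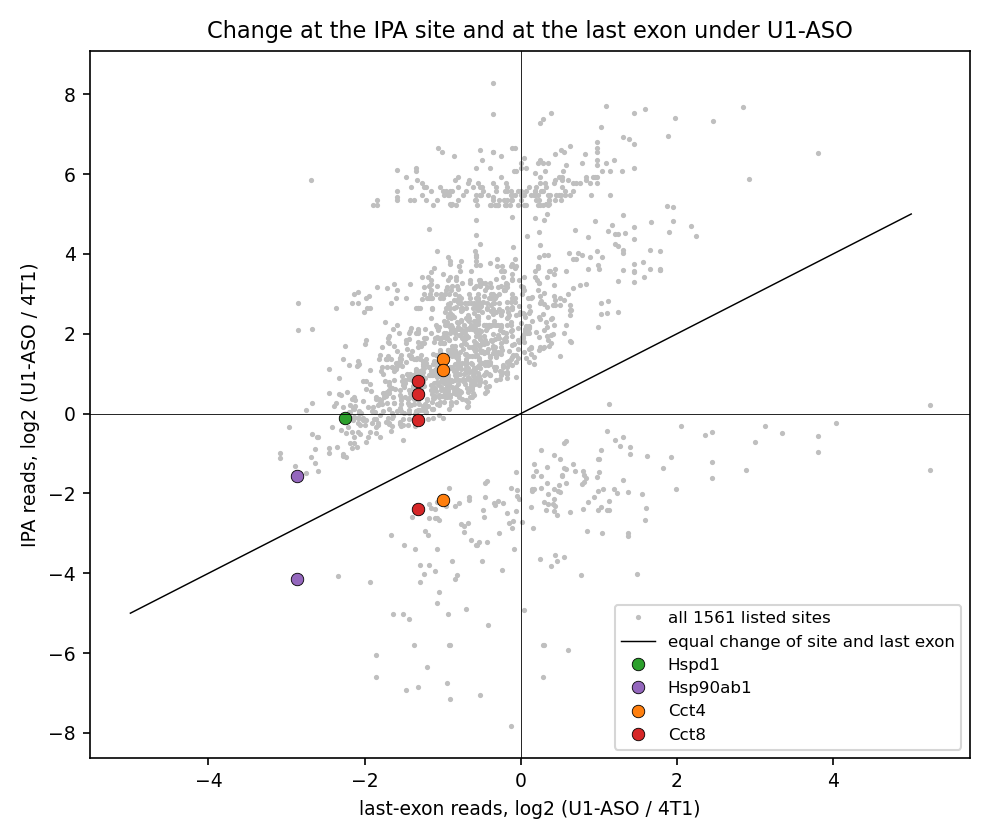
Log2 change with U1-ASO of IPA reads (vertical) against that of last-exon reads (horizontal) for each of the 1561 listed sites, from the edgeR fits on the authors' size factors, with the 10 sites of the 4 genes in colour. The coloured points all lie left of 0, from -1.001 in Cct4 to -2.86 in Hsp90ab1, and those above the diagonal have higher usage.

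Other folding genes were taken from a list of 99 genes, and 24 of them had 39 sites in the U1-ASO table, 35 higher and 4 lower in usage. The share higher was 89.7%, near the 87.6% of all listed sites. Of 11 chaperonin genes, 10 were listed, among them all 8 CCT subunits (Tcp1, Cct2, Cct3, Cct4, Cct5, Cct6a, Cct7 and Cct8) and Pdcl3, a cofactor of CCT. The share of all genes with reads that were listed was not computed, at like depth or at any. Counts of listed genes, here and for the other folding lists, therefore have no background. Their last exons passed as lower in 10 of 10, beside 54.9% of all 1131 genes, with a median of -1.42 on the log2 scale beside -0.66. With totals 9 of 10 passed, beside 26.8%, with a median of -0.82 beside -0.07. These last exons had from 261 and 376 reads (Pdcl3) to 4452 and 4426 (Cct5) in 4T1, beside a median of 293.5 over all listed sites. More reads make passing easier, and no share of the 1131 genes at like depth was computed. Tcp1, the CCT subunit alpha, fell by 2.28 (SE 0.17, adjusted p = 0.000298) and Cct3 fell by 2.168 (SE 0.22, adjusted p = 0.000299) by the edgeR quasi-likelihood test. At the sites themselves 1 of 18 chaperonin sites was higher (Pdcl3) and 5 were lower on the authors' size factors, beside 57.1% and 12.1% of all sites. With totals 10 were higher and 3 lower, beside 1190 and 150 of all 1561 sites. Cct5 had a single site, and its usage was lower with U1-ASO, at 1.36% and 1.54% against 3.47% and 3.07%.

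The Hsp90 list had 3 of 20 genes in the table, Hsp90ab1 and the immunophilin cochaperones Fkbp4 and Ppid, and the last exon was lower in 3 of 3. In the Hsp70 list the last exon was lower in 3 of 6 genes (Hspa14, Hsph1 and St13) and higher in 1, near the shares of 54.9% and 9.37% over all genes. Its 11 sites all had higher usage, as did 87.6% of all sites. The last exon that was higher was that of Hspa5 (BiP), the Hsp70 of the endoplasmic reticulum, with 12677 and 14421 reads with U1-ASO and 3588 and 5674 in 4T1. It rose by 0.99 (SE 0.24, adjusted p = 0.00859, edgeR quasi-likelihood test). Hsf2, a heat shock transcription factor, had 7 and 18 site reads with U1-ASO and 0 and 0 in 4T1, with usage of 14.9% and 24.0% in the former. No small heat shock protein and no Hsf1 row was listed. J proteins gave 3 of 34 genes and prefoldin 1 of 7, each with higher usage, the direction of 87.6% of all sites. Between lines, the authors' deposited tables also list Sugt1, Tcp1 and Pfdn1 of the folding list. Sugt1 had lower usage in 4T07 than in 67NR (log2 fold change -1.61, SE 0.52), as had 176 of 214 listed sites. Tcp1 (-1.08, SE 0.31) and Pfdn1 (-1.2, SE 0.37) had lower usage in 4T1 than in 168FARN, as had 64 of 85.

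**Figure D3:**
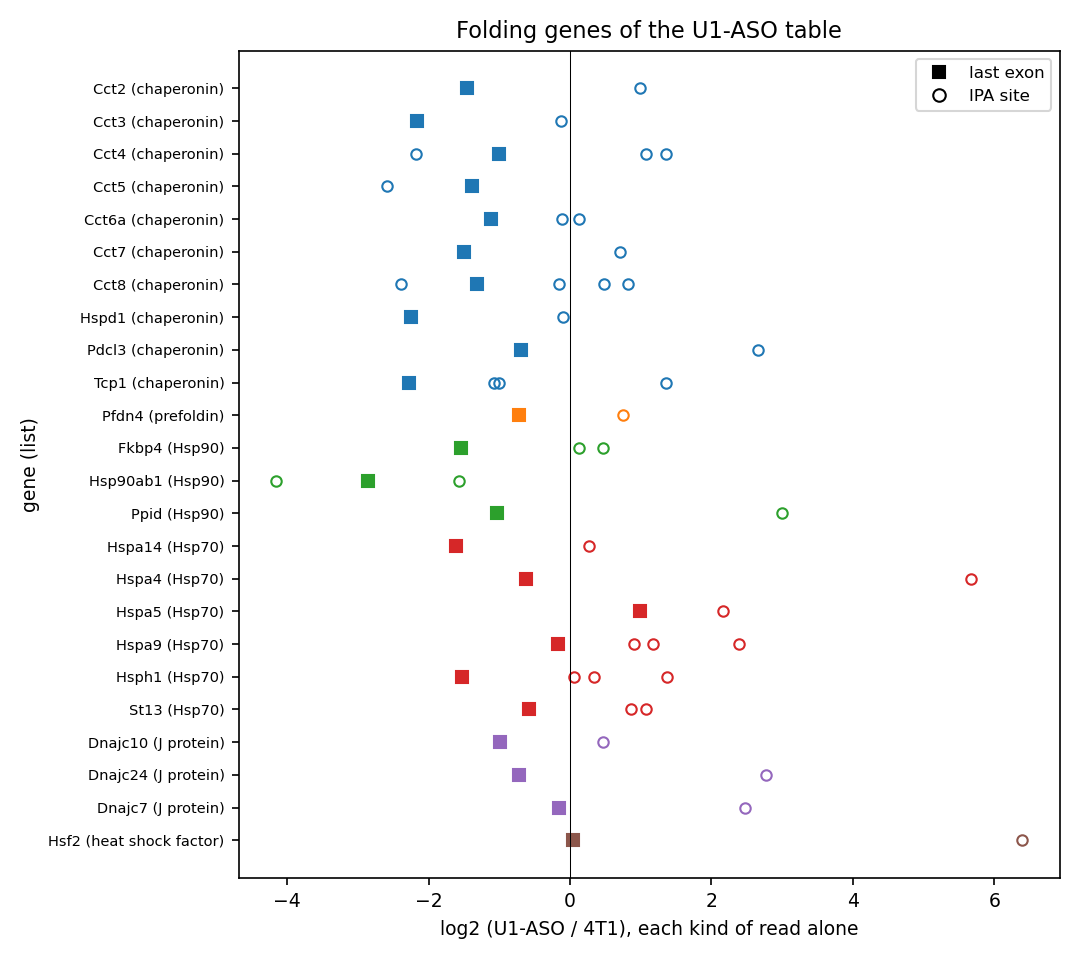
Log2 change with U1-ASO of last-exon reads (squares) and of IPA reads at each listed site (circles) for the 24 listed genes of the folding list, on the authors' size factors. The squares of the 10 chaperonin genes lie between -0.70 and -2.28, while that of Hspa5 lies at 0.99.

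The last exon could also be read in all 10 libraries from the peak lists, which were not themselves selected by the U1-ASO comparison. Hspd1, Hsp90ab1, Cct4 and Cct8, however, have rows in that comparison because the authors selected on usage, which a lower last exon raises. Their list values are therefore no independent check of the fall, and only Ptges3 lies outside that selection. The list reads equalled the table reads at the last exons of Cct4 and Cct8, and in U1-ASO they were 2068 against 2094 in replicate 1 at Hsp90ab1 and 288 against 295 in replicate 2 at Hspd1. Levels are given in RPM, reads scaled to the library total on the 10 shared chromosomes. These chromosomes held 42.7% and 43.0% of the autosomal reads in 4T07 and 45.8% to 48.0% in the other complete lists, so 4T07 stands higher against the other lines on this scale than on autosomal totals. In a fit over 26041 regions, the edgeR quasi-likelihood test (TMM scaling, 9 libraries, with 67NR represented by replicate 1 alone) called 9.06% lower and 4.34% higher with U1-ASO. Among the 4910 regions of at least 1000 reads these shares were 32.4% and 6.66%. Of the 5 last exons, 4 passed as lower. Hsp90ab1 fell by 2.51 (SE 0.11, adjusted p = 0.00191), Hspd1 fell by 1.92 (SE 0.25, adjusted p = 0.00984) and Cct4 fell by 0.64 (SE 0.09, adjusted p = 0.0111) in the edgeR quasi-likelihood test. Ptges3, which the U1-ASO table does not list, fell by 0.88 (SE 0.08, adjusted p = 0.00470) in the same test.

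With 1 of the U1-ASO libraries left out, the adjusted p of Cct4 was 0.0808 or 0.0801 and that of Hspd1 0.0702 or 0.0692, and scaling by total reads gave Cct4 0.0829. Cct8 differed by -0.96 with an adjusted p of 0.641. In the list of 168FARN replicate 1 its last-exon peak had 44 reads, against 1255 in replicate 2, while its site at 87485836 to 87486149 had 41 reads against 52. Without that library Cct8 fell by 0.97 (SE 0.11, adjusted p = 0.0182, edgeR quasi-likelihood test). The level of Ptges3 was 682 and 671 RPM with U1-ASO and 1016 and 1106 in 4T1.

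Among the lines, 4T1 had the highest last-exon level of Hsp90ab1 in both libraries. Hsp90ab1 had 8598 and 8010 RPM in 4T1, 4948 and 4298 in 67NR, 5243 and 5023 in 4T07, and 4813 and 4768 in 168FARN. The order of the other 3 lines depends on the scaling and the libraries used: 4T07 lies above 67NR in RPM, while the fit gave -0.08 (adjusted p = 0.837, edgeR quasi-likelihood test) and the fit of 10 libraries 0.25 (adjusted p = 0.275). Neither passed. 4T1 exceeded 168FARN by 0.91 (SE 0.11, adjusted p = 0.00697) and 67NR by 0.79 (SE 0.14, adjusted p = 0.0289) on the log2 scale, by the edgeR quasi-likelihood test. The second of these had an adjusted p of 0.0662 without 168FARN replicate 1, and the first 0.0549 without 168FARN replicate 2. In these fits 6.6% of all regions were higher in 4T1 than in 168FARN and 4.45% higher than in 67NR, and 15.6% and 11.2% of the deep ones.

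Cct8 also stood highest in 4T1, at 1675 and 2018 RPM, against 939 and 945 in 67NR and 797 and 868 in 4T07. Without 168FARN replicate 1 the excess of 4T1 over 67NR was 1.01 (SE 0.13, adjusted p = 0.0282) and that over 168FARN 1.15 (SE 0.13, adjusted p = 0.0218) by the edgeR quasi-likelihood test. With that library the adjusted p were 0.808 and 0.358. Cct4 was at 981 and 1057 in 4T1, 916 and 858 in 67NR, 692 and 778 in 168FARN and 578 and 602 in 4T07. It was lower in 4T07 than in 67NR by -0.77 (SE 0.11, adjusted p = 0.0149) and higher in 4T1 than in 168FARN by 0.58 (SE 0.09, adjusted p = 0.0142) in that test. Regions lower in 4T07 than in 67NR were 3.06% of all and 8.17% of the deep ones. The former was 0.0992 or 0.0795 without 1 of the 4T07 libraries, and the latter 0.0909 or 0.0628 without 1 of the 168FARN libraries. Hspd1 ranged from 314 in 67NR to 888 in 4T1, and none of its 4 contrasts between lines passed. Its largest, 1.23 for 4T1 against 67NR (SE 0.31, adjusted p = 0.0792, edgeR quasi-likelihood test), passed with all 10 libraries (1.13, adjusted p = 0.0234), with DESeq2 (adjusted p = 0.00156) and without a low-count filter.

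**Figure D4:**
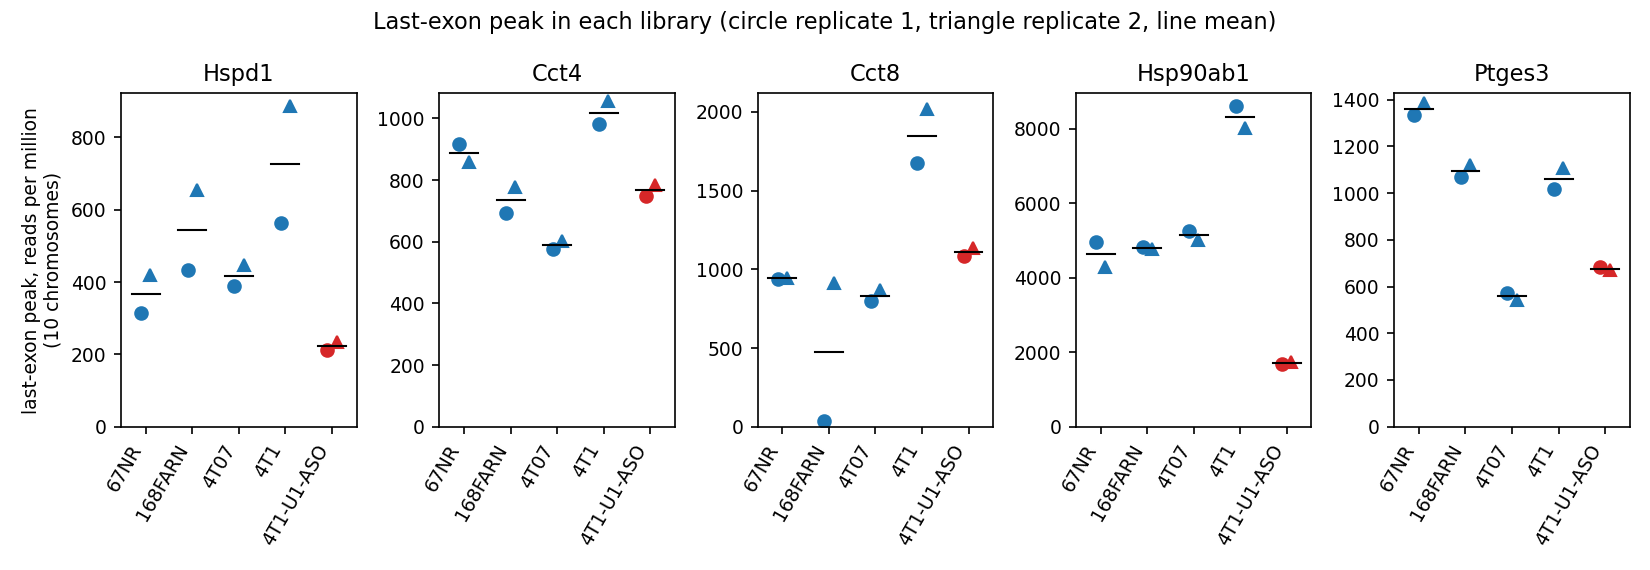
RPM of the last-exon peak (10 shared chromosomes) for 5 genes in each of 10 libraries, with replicates as circles and triangles, U1-ASO in red and the mean as a line. In every gene both U1-ASO points lie below both 4T1 points, and the low circle of Cct8 in 168FARN is the library with 44 reads.

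The last exon of Ptges3 was lowest in 4T07, at 544 and 574 RPM, against 1335 and 1384 in 67NR, 1069 and 1121 in 168FARN and 1016 and 1106 in 4T1. It fell by 1.39 against 67NR (SE 0.09, adjusted p = 0.00220) and by 1.03 against 168FARN (SE 0.08, adjusted p = 0.00265) in the edgeR quasi-likelihood test, where 3.06% and 4.88% of all regions were lower, and 8.17% and 14.3% of the deep ones. 4T1 and 168FARN overlapped in RPM.

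Ptges3 was the one gene of the 5 with rows in the comparisons of lines. Its upstream site (chromosome 10, plus strand, 127498816 to 127499315) lies 13944 bp before the last-exon peak at 127513259 to 127514330. It had 19 and 18 reads in 67NR, 6 and 6 in 4T1, 6 and 6 in 4T1-U1-ASO, 1 and 0 in 4T07, and 0 and 1 in 168FARN. The lists and the tables gave equal reads in all 8 library values that both hold. Usage was 0.906% and 0.903% in 67NR, 0.514% and 0.412% in 4T1, 0.716% and 0.719% with U1-ASO, and at most 0.148% in 4T07 and 168FARN. The groups fall in 2 ranges, with both metastatic lines on opposite sides and both non-metastatic lines on opposite sides. Under 1% of Ptges3 ends were at this site in any library.

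Against 67NR, 4T07 had lower usage. As with U1-ASO, every site listed for the lines passed the edgeR test relative to the last exon, since the authors had selected the sites. Passing that test thus adds nothing to the authors' adjusted p, here and for the pairs below. The authors' deposited table gives -1.81 (SE 0.54, adjusted p = 0.027). The site's reads per last-exon read were 12.8 times higher in 67NR, with an exact 95% interval of 2.16 to 519 for counting error only, and the edgeR quasi-likelihood test gave an adjusted p of 0.000296. The last exon was itself lower in 4T07, with 675 and 726 reads against 2077 and 1976, and fell by 1.34 (SE 0.14, adjusted p = 0.000124, edgeR quasi-likelihood test). Of the 214 sites listed for this pair 82.2% were lower in 4T07, and 73.8% were lower by their own reads, as the Ptges3 site was (adjusted p = 9.79e-08). Of the 200 last exons 19.5% were lower.

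Against 168FARN, 4T1 had higher usage of the same site. The authors' deposited table gives 1.73 (SE 0.54, adjusted p = 0.090). The ratio per last-exon read was 13.6, with an exact 95% interval of 2.01 to 580, and the adjusted p was 0.000502 by the edgeR quasi-likelihood test. The last exons had 1162 and 1452 reads against 1417 and 1538, or 1371 and 1454 against 1357 and 1341 after the authors' normalization, and differed by 0.07 (SE 0.13, adjusted p = 0.691, edgeR quasi-likelihood test). The site's own reads were higher (adjusted p = 0.0171, edgeR quasi-likelihood test), and this call was lost without 168FARN replicate 1 (0.0662) or without either 4T1 library (0.153 and 0.128). Of the 85 sites listed for this pair 24.7% were higher, and 16.5% by their own reads.

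**Figure D5:**
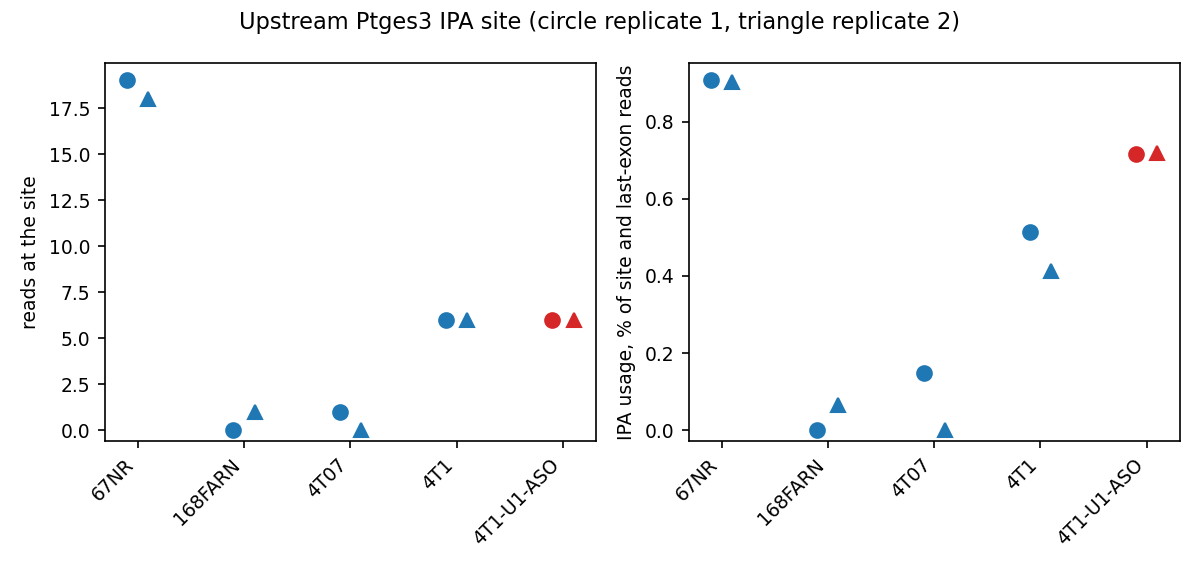
Reads at the upstream Ptges3 site (left) and its usage in percent (right) in each of 10 libraries, with replicates as circles and triangles and U1-ASO in red. 67NR has 19 and 18 reads, 4T1 and 4T1-U1-ASO 6 in every library, and 4T07 and 168FARN at most 1.

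A second Ptges3 site (127510673 to 127511019, 2240 bp before the last-exon peak) was listed for 4T07 against 168FARN, with 7 and 9 reads against 3 and 7. Its usage was 1.03% and 1.22% in 4T07 and 0.211% and 0.453% in 168FARN. Among the peak lists only that of 67NR replicate 2 holds a peak there, with 17 reads and usage of 0.853%. The lists of 4T07 and 168FARN lack it although the authors counted reads, so the other lines cannot be ranked at this site. The authors' deposited table gives 1.36 (SE 0.48, adjusted p = 0.081), and the edgeR quasi-likelihood test gave 1.74 (SE 0.60, adjusted p = 0.00386). The site's own reads, 7.72 and 8.34 against 3.03 and 6.46 after the authors' normalization, gave 0.72 (adjusted p = 0.238), while the last exon fell by 1.01 (SE 0.10, adjusted p = 2.50e-05), by the same test. Without 4T07 replicate 2 the relative adjusted p was 0.0822, and without 168FARN replicate 1 it was 0.0514. For this pair 20.4% of 329 sites were higher in 4T07 and 24.3% of 284 last exons were lower.

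No table of lines lists Hspd1, Hsp90ab1, Cct4 or Cct8. Where the peak lists give their sites, the lines can be described. The Cct8 site at 87485836 to 87486149 had 41 and 64 reads in 67NR, 41 and 50 in 4T07, 41 and 52 in 168FARN, and 87 and 82 in 4T1. It was higher in 4T1 than in 67NR by 1.43 (SE 0.29, adjusted p = 0.0422) and than in 168FARN by 1.13 (SE 0.22, adjusted p = 0.0301) in the edgeR quasi-likelihood test, as was the last exon of the gene without 168FARN replicate 1. Both calls were lost without 4T1 replicate 1 (adjusted p = 0.0556 and 0.0544), both without 168FARN replicate 1 (0.0740 and 0.145), and the second without 168FARN replicate 2 (0.0969). A fit with a term for the replicate number (the replicate block) lost both calls as well. Usage of this Cct8 site overlapped between 4T1, at 4.34% and 3.001%, and 67NR, at 2.73% and 4.53%. The Cct4 site 196 bp from the last exon had usage of 6.68% and 5.33% in 67NR, 5.29% and 5.52% in 4T07, 3.67% and 6.81% in 168FARN and 3.53% and 4.34% in 4T1. Both U1-ASO values from the table, 1.72% and 1.82%, lie below all 8 of these. The list lacks this peak in U1-ASO replicate 1, where the table has 16 reads, so an absent peak in a list is not a count of 0.

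Promoter sequence was at hand for Hspd1, Ptges3 and Cct8 (RefSeq, GRCm38.p6). Heat shock factors bind inverted repeats of GAA, and the 250 bases before each start were searched for GAANNTTCNNGAA and its reverse complement TTCNNGAANNTTC. A match was found in 1 of 2 Hspd1 entries and in none of the other two genes, against 0.466% of all 32851 promoters. Of the folding list, 3 of 79 genes with an entry had a match, Hspd1, Hspe1 (the partner of Hspd1) and the J protein Dnajb6. Of all 27025 genes with an entry, 139 had a match. Whether the matches of Hspd1 and Hspe1 are the same stretch was not tested. The Hspd1 match is shown as the only one among the 5 genes, and capitals mark 2 overlapping matches that start 144 bases before the start (GRCm38.p6 chr1:55088053-55088082, minus strand).
Hspd1 promoter: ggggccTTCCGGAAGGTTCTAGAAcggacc
The match describes these letters only.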

How the data were processed

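Per the labels' protocols, 5 µg of total RNA per library gave poly(A)+ RNA that was fragmented, primed with anchored oligo-dT, amplified by 13 PCR cycles and read as 50-nt single ends. Priming on A-rich stretches inside transcripts could not be checked without mm9 sequence. The submitters' processing notes name mm9, DESeq2 1.4.5, Bowtie2 2.2.5, bedtools 2.17.0 and SAMtools 1.1, without their roles. The authors deposited a filtered peak list per library with a read count per peak; at some sites a list lacks a peak for which the table has reads, so a list value is given for a site only in libraries whose list holds the peak or equals the table. The authors' deposited tables give each site, per the file headers, a log2 fold change, its SE, a test score and a p-value before and after adjustment. They also hold a normalized read signal, deposited by the authors, for the site and its last exon in 4 libraries. From its decimals the value of 1 read was found, and 100% of values came out whole within 0.1 read. Directions are U1-ASO or the metastatic line minus the other group.

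The main test on these reads was the quasi-likelihood test of edgeR 4.0.16 (R 4.3.3), with library sizes from the size factors of the authors and Benjamini-Hochberg adjustment over each whole table (threshold 0.05), each table alone because tables were normalized separately. SEs beside edgeR values are the log2 change divided by the root of the F statistic. Fitted changes of sites with few reads depend on the prior count. Peak lists were merged by strand at 1 bp overlap and fitted over 9 libraries, leaving out the incomplete 67NR list. Scripts were tested on simulated data. DESeq2 1.42.0, other scalings, a filter of 10 reads, a replicate block and leaving out each library were alternatives. The 5 genes, the rule to use all rows of these 5 and the folding list were chosen with earlier results of these data known. Scaling by peak-list totals, the fit with 10 libraries, Cct8 without one 168FARN library and the difference between contrasts were chosen after seeing the data.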

Additional observations from a re-analysis of the deposited data

Results flagged for a closer look

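The metastatic minus non-metastatic difference in last-exon reads was tested for being equal in the pairs 4T1 with 168FARN and 4T07 with 67NR (edgeR quasi-likelihood test over 26041 regions in 9 libraries, adjusted p under 0.05, with 67NR represented by replicate 1 alone). No label pairs these lines, and the other pairing (4T1 with 67NR and 4T07 with 168FARN) was not tested, so the values hold for this pairing only. They are given for the 3 of the 5 genes that this fit flagged. Which genes passed is set beside a share of all regions only for the fit of 10 libraries below. For Ptges3 the difference between the pairs was 1.45 (adjusted p = 0.00396), with 4T07 below 67NR by -1.39 and 4T1 level with 168FARN at 0.06. For Cct4 it was 1.35 (adjusted p = 0.00587), with -0.77 for 4T07 against 67NR and 0.58 for 4T1 against 168FARN. For Hsp90ab1 it was 0.99 (adjusted p = 0.0262), with -0.08 for 4T07 against 67NR, a value that was positive with 10 libraries and with no filter, and 0.91 for 4T1 against 168FARN. With all 10 libraries on the 10 shared chromosomes the values were 1.21 (adjusted p = 0.00151), 1.04 (adjusted p = 0.00544) and 0.63 (adjusted p = 0.0817), so the call for Hsp90ab1 was lost. Ptges3 and Cct4 thus passed in that fit of 10 libraries, where 524 of all 10195 regions passed with a positive difference and 823 with a negative one. No share of the deep regions was computed for this difference.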

How the results depend on the processing

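Of the 10 sites called relative to the last exon with U1-ASO, 8 were called by DESeq2 and 7 to 10 with 1 library left out. The 2 lost by DESeq2 were the listed sites nearest the last exon in Cct4 (adjusted p = 0.0616) and Cct8 (0.0802). Over all 1561 sites DESeq2 called 1303 as higher and 187 as lower, against 1368 and 193 by edgeR. For the own reads of the 10 sites the count of 4 called sites became 8 with peak-list totals and was 4 to 4 with 1 library left out, as was that of the 4 last exons. Between lines, 3 sites were called relative to the last exon and 2 to 3 with 1 library left out, 2 by their own reads (1 by DESeq2, which gave the other no adjusted p, and 1 to 2 with 1 library left out), and 2 last exons throughout (2 to 2). In the peak lists, 4 site contrasts between lines became 8 with no filter, 2 with the replicate block and 2 to 4 with 1 library left out. Of these 4, 2 are at Cct8. The other two (4T1 and 4T07 against 168FARN) and the 1 site called with U1-ASO are at the downstream Hsp90ab1 site and are void: both 4T1 lists lack that peak, where the table has 169 and 175 reads, and both 4T07 lists lack it too. The 2 left with the replicate block are these void calls, and the calls gained with no filter rest on peaks absent from lists. The count with U1-ASO was 4 with no filter, 0 with 10 libraries and 0 to 1 with 1 library left out.

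Signs reversed only for values that had not passed, and ranges here are over leaving out 1 library. Own reads with U1-ASO were 9.2e-05 (DESeq2), 0.038 (TMM), 0.48 (totals) and -0.34 to 0.10 at Hspd1. At Cct8 they were 0.44 (totals) and -0.40 to 0.10 at the site 1512 bp from the last exon, and -0.017 to 1.05 at the farthest. The Ptges3 last exon in 4T1 against 168FARN was -0.0020 (TMM) and -0.046 (totals), and -0.039 in the lists with total reads. In the lists, 4T07 against 168FARN gave -0.17 to 4.54 at the Cct8 last exon, and -0.10 to 0.12 and -0.032 (total reads) at its site. With U1-ASO that site gave -0.018 to 0.42. The Hsp90ab1 last exon gave -0.0037 (total reads) and -0.016 to 0.081 in 4T07 against 168FARN, and 0.25 (10 libraries) and 0.033 (no filter) in 4T07 against 67NR. The upstream Ptges3 site gave -2.28 to 2.34 in 4T07 against 168FARN, and 0.080 with U1-ASO (total reads). The lowest value at the Cct8 last exon came without 168FARN replicate 1 and the highest without replicate 2. The other causes were not tested.

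Replicate numbers were taken not to pair the libraries, since deviations of same-numbered libraries correlated by -0.03 with U1-ASO and by -0.12 to 0.24 between lines, over 2 pairs. With the replicate block the table counts were 10, 4 and 4 with U1-ASO and 3, 2 and 2 between lines. Over the whole U1-ASO table, sites higher by their own reads numbered 891, against 336 by DESeq2 and 1190 with totals, and last exons lower 621, against 303 with totals. Sites under about 20 reads are limited by counting error.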
